A study of Caenorhabditis elegans with 2 samples.

Results

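The 9 genes described here, egg-1 to egg-6, chs-1, mbk-2 and cbd-1, form a list of Caenorhabditis elegans genes for sperm entry, egg activation and the eggshell, out of 19973 nuclear protein-coding genes. They were taken from an account of these same peak lists and so were chosen with their measured values known, above all the peak at egg-5 and its contrast with the near-identical egg-4. What follows describes peak positions and values at these genes, with no test of the list. The measurement was chromatin immunoprecipitation and sequencing (ChIP-seq) of the transcription factor APTF-3, a member of the AP-2 family. The worms were strain OP765, in which an integrated fosmid transgene, wgIs765, carries aptf-3 with a TY1, EGFP and 3xFLAG tag and an unc-119(+) rescue gene in an unc-119 (tm4063) background. The labels name no change to the aptf-3 gene itself, and they do not say in which tissues the tagged protein is made. Whole young adults were taken at 64 h after synchronisation by bleaching and starvation as first-stage larvae, and the tagged protein was pulled down through its GFP. A single group of worms was studied, in 2 biological replicates. A peak from oocytes or early embryos cannot be told apart from one of another tissue in whole animals, and no control signal and no other factor was analysed here.

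The oocyte of C. elegans is fertilised as it passes through the sperm store, and entry of the sperm starts both the end of meiosis and the building of the eggshell. EGG-1 and EGG-2 are oocyte surface proteins with LDL-receptor repeats that sperm entry needs, and CBD-1 is a chitin-binding protein of the vitelline layer outside the oocyte. Beneath the membrane, the pseudophosphatases EGG-3, EGG-4 and EGG-5 hold the kinase MBK-2 at the cortex, near the chitin synthase CHS-1. After fertilisation MBK-2 is let go and marks maternal proteins such as MEI-1 and OMA-1 for destruction, while CHS-1 makes the chitin layer. EGG-6 is a membrane protein with extracellular leucine-rich repeats, known for its part in the apical matrix of epithelial tubes.

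Sequences are shown for 4 of the sites, so that the letters under a strong but unthresholded peak (egg-1 and mbk-2 upstream), an ordinary peak at a gene start (cbd-1) and a thresholded peak in an intron (mbk-2 intron) can be compared. Each is 101 bases centred on the summit, the position of the peak's maximum, from RefSeq's copy of the ce11 assembly (WBcel235), + strand, 5′ to 3′. The 3 genes lie on the + strand too. The egg-1 site is chrIII:5728019-5728119, and the mbk-2 upstream site is chrIV:13008112-13008212. The cbd-1 site is chrIV:11373005-11373105, and the mbk-2 intron site is chrIV:13012356-13012456. Capitals mark GCC and GGC, the arms of the AP-2 consensus GCCNNNGGC.
egg-1: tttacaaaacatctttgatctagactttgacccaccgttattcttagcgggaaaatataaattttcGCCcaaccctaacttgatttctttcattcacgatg
mbk-2 upstream: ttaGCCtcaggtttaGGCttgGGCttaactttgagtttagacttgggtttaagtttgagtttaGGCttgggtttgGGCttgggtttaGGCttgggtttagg
cbd-1: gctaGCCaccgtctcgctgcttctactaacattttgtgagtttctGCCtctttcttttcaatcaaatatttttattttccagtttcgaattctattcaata
mbk-2 intron: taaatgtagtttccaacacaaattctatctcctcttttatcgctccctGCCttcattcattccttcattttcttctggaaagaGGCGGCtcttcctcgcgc

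None of the 4 sequences holds the full consensus, in which the arms are separated by 3 bases. GCCNNNGGC, which reads the same on both strands, was found in 0 of the 9 promoter windows, taken as 1000 bp upstream to 200 bp downstream of the gene's 5′ end. The share among all protein-coding promoters of that length was 5.31%. Within 100 bp of the strongest summit of each window, and of the thresholded peaks near the genes, it was found 0 times. This says only that these letters are not in these windows. Single arms are common: 77.0% of all windows of 101 bases around a ranked summit hold at least 1 GCC or GGC, with a median of 2. The mbk-2 upstream site holds 6, the mbk-2 intron site 3, cbd-1 2 and egg-1 1. The mbk-2 upstream sequence is a run of short repeats close to TTAGGC, the telomere repeat of this worm. TTAGGC on either strand occurs 3 times in the printed bases and 10 times in the whole peak, while 3.14% of ranked summit windows hold it at all and 0.541% hold it 3 or more times.

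The deposited data are 8 lists of peaks. The thresholded list of the series, here the main list, holds 785 peaks, and a conservative version 675. Each rests on both replicates. The replicates taken singly passed fewer peaks, 178 for replicate 1 and 241 for replicate 2. Behind these stand ranked lists that also hold weak peaks, 85218 for replicate 1, 72073 for replicate 2 and more for the series, where the ranked list behind the conservative one holds 99255. Each peak has a signal in the authors' units, on a scale that no label or file header states, and an irreproducible discovery rate (IDR), which is low where a peak ranks high in both lists compared. Main-list peaks had an IDR of 0.01 or less. The median signal of the series ranked list was 21.7, that of replicate 1 was 13.3 and that of replicate 2 was 14.4. Levels are therefore ranked within a list, and an SD over the replicates also holds the difference in level between their lists. Read numbers are not in the files, so the depth is unknown, and the replicate values are given as they stand.

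Of the 9 genes, egg-5 alone had a main-list summit in its promoter window. That is 1 of 9, beside 1.49% of all protein-coding genes. The same gene was the 1 of 9 in the conservative list, beside 1.38%, and in the thresholded lists of replicate 1, beside 0.416%, and of replicate 2, beside 0.486%. The genes were chosen on these values, so nothing is read from the counts. All 9 had some summit in the ranked list of the series, where 69.8% of protein-coding genes had one. In the ranked list of replicate 1 there were 7 of 9, beside 66.1%, with egg-2 and egg-3 at none, and in that of replicate 2 there were 9 of 9, beside 57.9%.

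**Figure D1:**
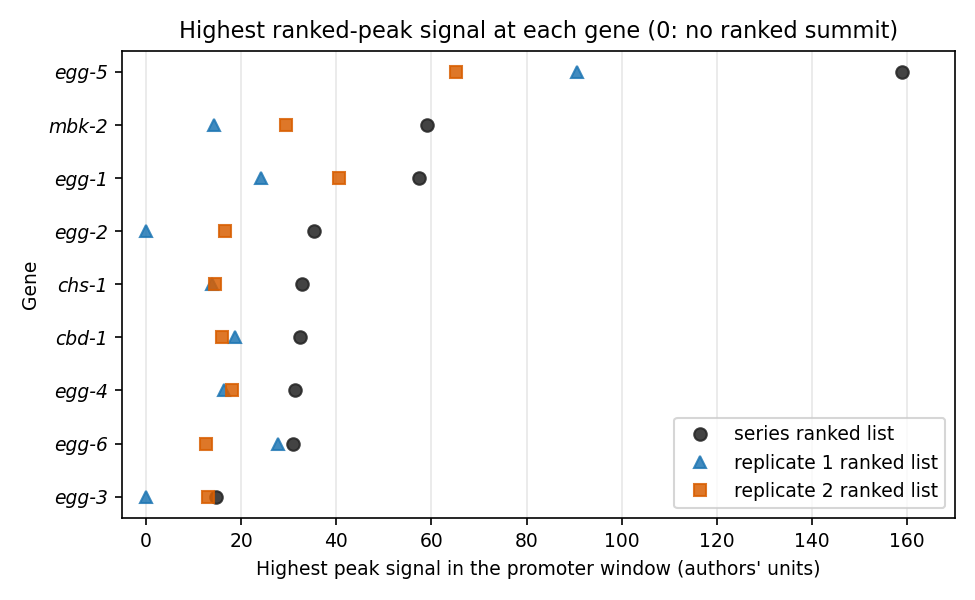
Highest peak signal in the promoter window of each gene (x axis, authors' units) in the series ranked list (dots) and in the ranked lists of replicate 1 (triangles) and replicate 2 (squares), with 0 for no ranked summit. The dot of egg-5 stands at 159, apart from the other 8 genes, which lie between 14.8 and 59.

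The highest signals in the windows, from the series ranked list, fell into 3 groups by level. At the top stood egg-5 at 159. Next came mbk-2 at 59 and egg-1 at 57.4. The other 6 genes, egg-2 at 35.4, chs-1 at 32.7, cbd-1 at 32.3, egg-4 at 31.4, egg-6 at 30.8 and egg-3 at 14.8, lay within the bulk of the genome, as the plot of the genes among all protein-coding genes shows. The median of the 9 was 32.7, and 32.5 without egg-5, while the median of all protein-coding genes was 20.6 with genes lacking a summit at 0, and 27.5 among genes that have one. In the series list 8 of the 9 exceeded both medians. In replicate 1 the median of the 9 was 16.3 beside 11.4 for all genes, with 7 above, and in replicate 2 it was 16.6 beside 10.4, with all 9 above. These all-gene medians also take genes lacking a summit at 0. Beside only the genes with a summit, egg-2, egg-3, chs-1 and mbk-2 did not exceed the median in replicate 1. In replicate 2, egg-2, egg-3, egg-6, chs-1 and cbd-1 did not exceed it. The remaining genes of the list did in each case.

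**Figure D2:**
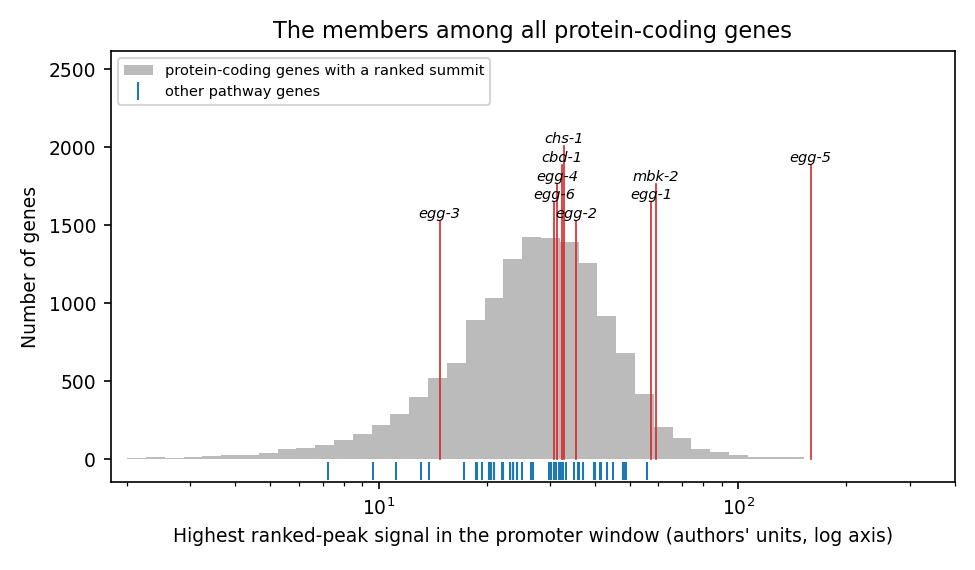
Number of protein-coding genes (y axis) by the highest signal in their promoter window in the series ranked list (x axis, authors' units, log scale), for genes with a ranked summit (grey), with the 9 genes as red lines and the other genes of the pathway lists as blue ticks. The line of egg-5, at 159, stands in the sparse right tail, at rank 10 of all protein-coding genes, and no pathway gene exceeds 55.7.

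At the oocyte surface, egg-1 and egg-2 code for related LDL-receptor-repeat proteins (71.4% of aligned coding positions identical), but their windows differed. The gene egg-1 (WBGene00015083) lies at chrIII:5728180-5730159 on the + strand. Its highest peak, at 57.4, was centred 111 bp upstream of the 5′ end and had an IDR of 0.0439, outside the 0.01 of the main list. The level was above that of 97.09% of protein-coding genes. Replicate 2 had a summit 8 bp away with a signal of 40.6, and replicate 1 had none within 100 bp; its highest in the window was 24.1, at 18 bp downstream of the 5′ end. The replicates thus placed their strongest egg-1 peak at different positions on either side of the gene start, and their mean was 32.3 ± 11.7 (SD, n = 2). Weaker series summits lay 597 bp upstream at 29.7 and 954 bp upstream at 22.6.

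The partner gene egg-2 (WBGene00019811, chrIII:7058527-7060583, − strand) had 1 ranked summit, 926 bp upstream, with a signal of 35.4 and an IDR of 0.233. Replicate 2 had it at the same base, at 16.6, and replicate 1 had no ranked summit in the window. So neither sperm-entry gene had a thresholded peak at its start, and only the peak of egg-1 ranked near the top of the genes. No long stretch of upstream sequence is shared by the pair: the best alignment of the 1 kb before each gene covers 29 identical bases. The gene cbd-1 (WBGene00010351, chrIV:11372991-11377627, + strand), for the vitelline layer, had 1 series summit at 32.3, 64 bp inside the gene. Its IDR was 0.213, and its printed sequence is the one around that summit. Replicate 2 had 15.9 at 59 bp inside the gene, and replicate 1 had 18.6 at 34 bp upstream of the 5′ end. Their mean was 17.3 ± 1.87 (SD, n = 2).

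The cortex genes include the kinase mbk-2 (WBGene00003150), which spans chrIV:13009158-13035961 on the + strand. The peak of 59 in its window had an IDR of 0.0952 and was centred 996 bp upstream, 4 bp inside the edge of the window, on the repeat-like sequence printed above. Replicate 2 had 29.5 there. Replicate 1 had a summit 5 bp away with a signal of 28.2, which falls just outside the window, so that its value for the window was 14.3, from a weaker site 285 bp upstream. The window value of replicate 1 thus leaves out its summit at this site, where the IDR was 0.652 in the list of replicate 1 and 0.375 in that of replicate 2. Of the 36-base words of that peak, 9.96% were found more than once in the genome, copies within the peak itself included, and of the 50-base words 0. Nearer the gene start, the series summits were weak, at 10.3 and 6.63.

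A main-list peak did lie inside mbk-2, in an intron, 3248 bp downstream of the 5′ end, at chrIV:13012258-13012553. Its signal was 76.5 and its IDR 0.00394, with 39.0 in replicate 1 and 32.4 in replicate 2 at summits within 1 bp. It was in the conservative list too and in neither replicate's own thresholded list. Its IDR was 0.0387 in the ranked list of replicate 1 and 0.401 in that of replicate 2. The intron is 5098 bp long, and the summit is 2891 bp from the exon before it and 2208 bp from the exon after it. The gene has 6 annotated 5′ ends, and the nearest one downstream is 12128 bp from this summit, so the peak is not at a known alternative start. Counting summits anywhere in a gene or within 100 bp of it, mbk-2 was 1 of 9, beside 2.12% of protein-coding genes.

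**Figure D3:**
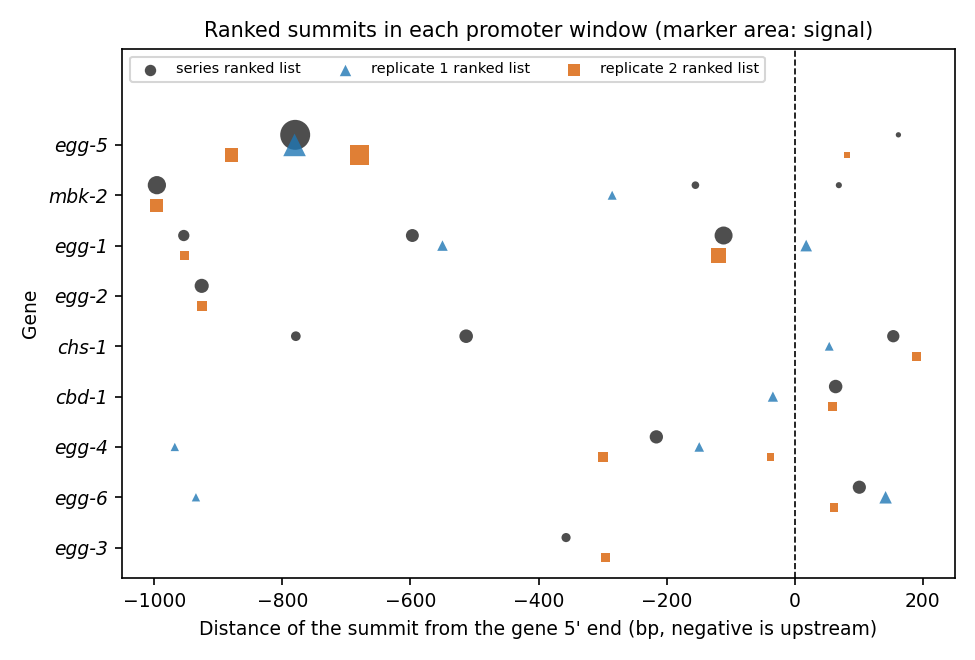
Distance of every ranked summit from the gene's 5′ end (x axis, bp, negative is upstream) in the promoter windows of the 9 genes, from the series ranked list (dots) and the ranked lists of replicate 1 (triangles) and replicate 2 (squares), with marker area in proportion to signal. The strongest marks are those of egg-5 near 780 bp upstream, mbk-2 at the window's edge and egg-1 at 111 bp upstream. Summits shift from list to list at several genes, among them egg-1, egg-3, egg-4, egg-5, chs-1 and cbd-1.

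The window of egg-3 (WBGene00009701, chrII:10882408-10884441, − strand), the anchor of the cortical complex, was the weakest of the 9. Its only series summit had a signal of 14.8 and an IDR of 0.7, 357 bp upstream. Replicate 2 had 13.0 some 62 bp away, and replicate 1 had no ranked summit. The series value of egg-3 was below the median of all protein-coding genes.

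The chitin synthase gene chs-1 (WBGene00000496) lies on chromosome I at 7554855 to 7559916, + strand. Its highest series signal was 32.7, 513 bp upstream, with an IDR of 0.321, and neither replicate had a summit within 100 bp of it. The replicates' own summits were nearer the start, 13.8 in replicate 1 and 14.4 in replicate 2. These values, 14.1 ± 0.415 (SD, n = 2), came from sites 54 and 190 bp inside the gene, and the series site 154 bp inside it had 26.9. For egg-6 (WBGene00010621, chromosome I at 8676666 to 8681325, − strand), the series summit was 101 bp inside the gene with a signal of 30.8 and an IDR of 0.309. Replicate 1 had 27.7 and replicate 2 had 12.6 within 41 bp of it. The level in replicate 1 was above that of 94.65% of genes and in replicate 2 above that of 56.25%, so the 2 replicates placed egg-6 differently among all genes.

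The gene pair egg-4 and egg-5 gave the sharpest contrast. They code for pseudophosphatases that bind MBK-2 and act in place of each other in the oocyte. Their coding sequences, 2259 bases each, differ at 20 positions, an identity of 99.1%. On chromosome I, egg-4 (WBGene00020652) spans 3932210 to 3934813 on the + strand and egg-5 (WBGene00020035) spans 4168984 to 4171589 on the − strand. The alignment of both loci covers more than the genes, from 463 bp before egg-4 to 2631 bp after its 5′ end, and from 461 bp before egg-5 to 2633 bp after its own, with 95.2% identity. Upstream of the genes the shared part has 77.2% identity.

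In its window egg-5 had 159 in the series list, with an IDR of 0.000174. It had 90.6 in replicate 1 (IDR 0.000443) and 65.1 in replicate 2 (IDR 0.00146), a mean of 77.9 ± 18.0 (SD, n = 2). Among the windows of all protein-coding genes it held rank 10 in the series list, rank 5 in replicate 1 and rank 39 in replicate 2. The window of egg-4 had 31.4 in the series list (IDR 0.278, 216 bp upstream), 16.3 in replicate 1 and 18.1 in replicate 2, or 17.2 ± 1.27 (SD, n = 2), and exceeded 72.87% of genes. Both replicates were higher at egg-5: the difference was 74.3 in replicate 1 and 47 in replicate 2, a mean of 60.7 ± 19.3 (SD, n = 2). As ratios within each list, egg-5 had 5.06 times the egg-4 value in the series, 5.56 times in replicate 1 and 3.6 times in replicate 2. The contrast was part of how the genes were chosen and is given as a description.

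The egg-5 peak lay outside the aligned block. It covers 4172221 to 4172516 on chromosome I, with its summit 780 bp upstream of egg-5 and 319 bp beyond the end of the shared block. Within the block both loci had weak summits, 4 at egg-4 with signals of 12.1 to 31.4 and 5 at egg-5 with signals of 5.01 to 30.7. Reads from such sequence can be hard to assign: 69.3% of the 36-base words of each gene, and 61.2% of the 50-base words of egg-4 and 61.1% of those of egg-5, occur more than once in the genome. In the egg-5 peak this was true of 1 of 261 words of 36 bases (0.383%) and of 0 of 247 words of 50 bases. In the strongest site of the egg-4 promoter window it was true of 0 at both lengths. In the main-list peak past the 3′ end of egg-4, described below, it was true of 5 of 261 words of 36 bases (1.92%). In the promoter windows the shares of 36-base words were 6.26% for egg-4 and 7.8% for egg-5. The window was also cut to 500 bp before and 100 bp after the 5′ end, which leaves out the peak. In the series list egg-5 then had no ranked summit and egg-4 had 31.4, a difference of −31.4. Replicate 1 likewise had no egg-5 summit there, and 16.3 at egg-4. In replicate 2 a weak egg-5 summit of 7.28, 82 bp inside the gene, remained, beside 18.1 at egg-4.

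**Figure D4:**
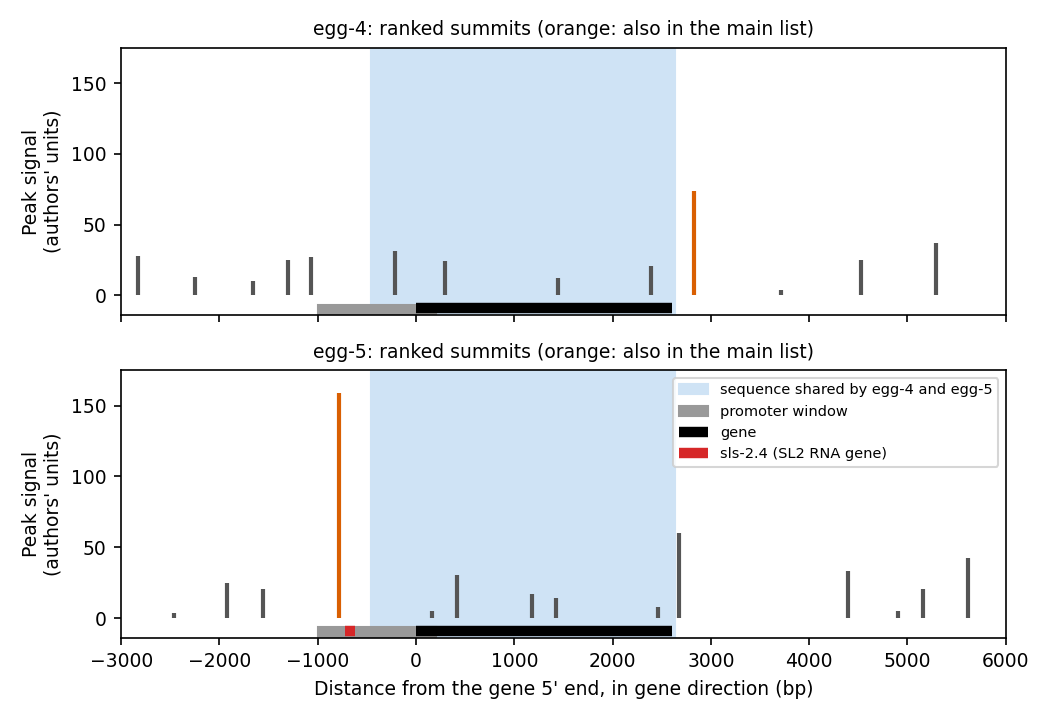
Signal of the ranked summits of the series (y axis, authors' units) by distance from the 5′ end in gene direction (x axis, bp) at egg-4 (top) and egg-5 (bottom), with main-list summits in orange, the sequence block the genes share shaded, and the gene, its promoter window and the SL2 RNA gene sls-2.4 as bars. The main-list summits, at 159 upstream of egg-5 and at 73.6 past the 3′ end of egg-4, both lie outside the shaded block.

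The summit upstream of egg-5 is also close to small RNA genes. The gene sls-2.4 (WBGene00004836, chromosome I at 4172206 to 4172315, + strand) codes for an SL2 RNA, the small nuclear RNA that donates the spliced leader to downstream genes of operons. The series summit was 54 bp past its 3′ end, that of replicate 1 was 55 bp past it, and that of replicate 2, which lay 100 bp nearer to egg-5, was inside it. Replicate 2 had a further summit of 30.4 at 880 bp upstream of egg-5. The annotated noncoding RNA R12E2.18 overlaps sls-2.4 on the − strand, and the series summit was 63 bp upstream of its 5′ end. The protein-coding gene R12E2.11 ends 69 bp from the summit on the other side, with its own 5′ end 1255 bp away. Among protein-coding genes egg-5 had the nearest 5′ end, but sls-2.4 and R12E2.18 had nearer ones.

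Of the 256 main-list summits in protein-coding promoter windows, 49 (19.1%) lay within 100 bp of a tRNA, snRNA or snoRNA gene, and of the 8 with a signal at or above that of egg-5, the egg-5 summit was the 1 that did. Of the 9 windows only that of egg-5 held a tRNA, snRNA or snoRNA gene, as did 1.35% of protein-coding windows. Of the 270 protein-coding genes with one in the window, 63 (23.3%) had a main-list summit there, beside 235 of 19703 (1.19%) without. Of the 18 SL2 RNA genes, 4 had a main-list summit in or within 100 bp of them, beside 2.12% of protein-coding genes. The share over all tRNA, snRNA and snoRNA genes is not given here. Signals at the 4 SL2 RNA genes were 62.9 to 159, the highest being that at sls-2.4. Which of these neighbours the egg-5 peak belongs to was not tested. By signal alone, the 5 protein-coding genes whose highest series value lay nearest that of egg-5 were eel-1 (166), T10C6.16 (165), rpl-3 (151), rpl-35 (149) and sre-23 (149), over 1 value a gene. The window of rpl-35 had no ranked summit in replicate 1, and 76.1 in replicate 2.

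The egg-4 locus had a main-list peak as well, at its other end. It covers 3934890 to 3935185 on chromosome I, with the summit 225 bp past the 3′ end of egg-4 and 197 bp outside the shared block. Its signal was 73.6 with an IDR of 0.00653. The signal was 28.1 in replicate 1 (IDR 0.309) and 42.8 in replicate 2 (IDR 0.0419). The peak was in the conservative list but in neither replicate's own thresholded list. Downstream of egg-5, 67 bp past its end and 39 bp outside the block, stood a ranked summit of 60.1 with an IDR of 0.0604. Both paralogues therefore had a summit just past the 3′ end, the egg-4 one past the threshold and the egg-5 one not. Within 300 bp of its 3′ end, egg-5 had at most 38.1 in replicate 1 and 24 in replicate 2. Replicate 1 was thus higher at egg-5 and replicate 2 at egg-4.

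These 3′ sites led to a look at the ends of the other genes, within 300 bp of the 3′ end, a window chosen after their values were seen. There cbd-1 had a summit of 60.8, 13 bp past its end, with 27.5 in replicate 1 and 37.4 in replicate 2, against 32.3 in the series list at its promoter. Its IDR of 0.0104 was just short of the main list. In that window mbk-2 had 32.2 and egg-3 had 21.7, and egg-2 had a weak summit, while egg-1, egg-6 and chs-1 had no series summit, although replicate 2 had 30.8 at egg-1 and 48.2 at egg-6. With main-list summits counted, egg-4 was 1 of 9, beside 1.29% of protein-coding genes. A ranked summit was present at 6 of the 9 3′ ends and at 51.2% of all. With genes lacking a summit at 0, the median signal was 21.7 beside 4.56 for all protein-coding genes. The all-gene median therefore lies close to the genes at 0. The 21.7, which is the value of egg-3, exceeded 69.55% of protein-coding genes.

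**Figure D5:**
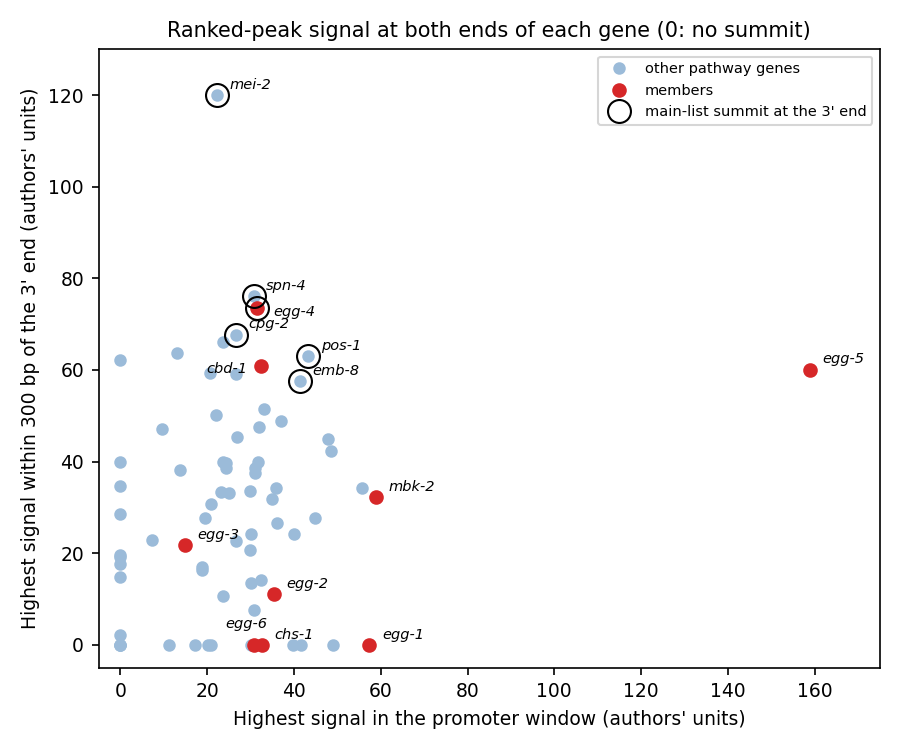
Highest signal of the series ranked list within 300 bp of each gene's 3′ end (y axis, authors' units) against that in its promoter window (x axis, authors' units) for the 9 genes (red) and the other pathway genes (blue), with 0 for no summit and rings for a main-list summit at the 3′ end. The ringed genes are egg-4, mei-2, spn-4, cpg-2, pos-1 and emb-8. Without a ring, mex-3 (66.2), sqv-2 (63.7), cpg-1 (62.2), cbd-1 (60.8), egg-5 (60.1), cyp-31A2 (59.4) and gsk-3 (59.1) lie among them.

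The wider pathway was read from 8 lists of other genes for eggshell layers, chondroitin, sperm factors, meiotic maturation, maternal protein turnover, membrane traffic and relatives of MBK-2. Of 69 symbols, 66 matched the annotation. None of the 66 had a summit in the promoter window in the main list, beside 1.49% of protein-coding genes, or in the conservative list, beside 1.38%. A share that low gives about 1 gene in 66, so the 0 is near the background. A ranked summit was there in 54 of the 66, beside 69.8%. Their median highest signal was 24.7, between the 20.6 of all protein-coding genes and the 32.7 of the 9. By list, the medians ran from 13.1 for chondroitin synthesis to 30.2 for meiotic maturation and the anaphase promoting complex and 33.2 for membrane traffic. The MBK-2 substrate and maternal turnover genes had a median of 24 and the eggshell chitin and proteoglycan genes 24.4. The highest single value in the series list was 55.7 at mel-26, the adaptor that brings MEI-1 to its ubiquitin ligase, below egg-1 and mbk-2. The replicates differed at mel-26, with 41.8 in replicate 1 and 12 in replicate 2. In replicate 1 it was above the window values of egg-1 (24.1) and mbk-2 (14.3).

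At their 3′ ends, 5 of the 66 (7.58%) had a main-list summit, beside 1.29% of protein-coding genes. The strongest was 122 bp past mei-2, whose product is the partner of MEI-1 in katanin, with a signal of 120 and an IDR of 0.000495, 42.8 in replicate 1 and 76.1 in replicate 2. That summit also falls in the promoter window of bag-1. The others were spn-4 at 76.2 and pos-1 at 63, both for RNA-binding proteins of the early embryo, cpg-2 at 67.7, for a chondroitin proteoglycan of the eggshell, and emb-8 at 57.6, for a cytochrome P450 reductase of the permeability barrier. None of these 4 lay in the promoter window of a protein-coding gene, and their IDRs were 0.00403 to 0.00991. With genes lacking a summit at 0, the median 3′ signal was 31.3 in the 66 genes, beside 21.7 in the 9 and 4.56 in all protein-coding genes. Only 51.2% of all protein-coding genes had a ranked 3′ summit, so the 4.56 lies close to the genes at 0. The window and the pattern were found on these values, and what lies behind it was not tested.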

How the data were processed

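ChIP-seq peaks of tagged APTF-3 came from 2 biological replicates of 1 group. Per the labels, chromatin was sonicated and coordinates are ce11. The deposited peak lists give a signal per peak, the authors' own value on an unstated scale, and the deposited ranked lists add the −log10 of the global IDR. For the aligner, peak caller, read depth and control, the details are not given in the sources used. In the series ranked lists, 16 columns of single inputs that no label ties to a replicate were not used.

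Genes were those of Ensembl release 115 on the same assembly, looked up by identifier. Summits were assigned to windows of 1000 bp upstream to 200 bp downstream of the outermost 5′ end, and a summit can fall in several windows. Replicate summits were matched within 100 bp. A gene with no ranked summit took 0. Sequence words of 36 and 50 bases were counted on both strands of the genome, and paralogues were aligned with Biopython 1.88. Python 3.11.15, pandas 2.3.3, numpy 2.4.6 and matplotlib 3.10.9 were used, and window counting was tested on simulated data. Positions are 1-based.

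All 9 genes are named, with every pathway gene holding a thresholded promoter summit, neighbours sharing a summit and the 5 genes nearest to egg-5 in signal. The other pathway genes, including those at 3′ ends, were named after their values were seen. The genes and lists were chosen with earlier results of these data known. No test was run, and ± values are the SD of 2 replicates. Alternatives were other lists, windows, 5′ ends, assignments and a signal minimum.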

Additional observations from a re-analysis of the deposited data

How the results depend on the processing

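No paired analysis was possible because there was 1 group and no test. Among the 9 genes the count with a main-list summit was 1 under every peak list and window tried except 500 bp upstream to 100 bp downstream, where it was 0. It was egg-5 each time, except that counting the gene and 100 bp around it gave mbk-2 and counting the 3′ end gave egg-4. The count over all protein-coding genes, 298, was 83 to 97 in the list of a single replicate, 184 with the 500 bp window, 519 with 2000 bp upstream to 500 bp downstream and 172 with the upper 50% of peaks. For the pathway genes the count of 0 became 1 with the 2000 bp window (gna-2), 4 in the gene or within 100 bp (cpg-2, pod-2, pos-1, spn-4) and 5 at the 3′ end, an alternative added after the data were seen. The egg-5 minus egg-4 signal of 127.4 was 47 to 74.3 in single replicates, whose signals are on a lower range, and −31.4 with the 500 bp window, which leaves out the egg-5 peak. For single genes, 36 alternative values came from the series lists, and 7 differed from those given. Of these, 5 were with the 500 bp window and 2 with the 2000 bp window. With the 500 bp window egg-2, egg-5, egg-6 and chs-1 fell to 0 and mbk-2 to 10.3. The grouping of the genes by level therefore did not hold in that window. With 2 replicates, unknown depth and an unstated signal scale, no interval could be given for any peak.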
